A study of Mus musculus with 15 samples.

Results

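Laminins, nidogens and perlecan are the non-collagen scaffold of vascular basement membranes. They were followed here as 10 genes, the laminin chains Lama2, Lama3, Lama4, Lama5, Lamb1, Lamb2 and Lamc1, the nidogens Nid1 and Nid2, and Hspg2, which encodes perlecan. The genes were chosen by name, out of 22526 gene symbols in the expression table, and all 10 were among the 13082 genes tested. Bulk RNA sequencing was run on cerebral vessels isolated from brains of wild type C57BL/6 mice aged 8 months, in 3 groups of 5 libraries. LH3-AL mice were injected stereotactically with AAV-LH3, an adeno-associated virus carrying the collagen-modifying enzyme LH3, and were given angiotensin II (AngII) plus L-NAME, which blocks nitric oxide synthases. GFP-AL mice were injected in the same way with AAV-GFP, which carries green fluorescent protein, and were given AngII plus L-NAME. GFP-Veh mice had AAV-GFP and saline. All 3 groups thus carried a virus, and no group combined AAV-LH3 with saline. No source used here gives the promoter or cell type that drives the viral genes, or says whether each library came from its own mouse, so p-values measure only the spread between these libraries. The series concerns spontaneous intracerebral haemorrhage in hypertensive mice and its response to LH3.

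A laminin is a cross-shaped trimer of an alpha, a beta and a gamma chain that assembles into a sheet on the cell surface, where the alpha chain binds integrins and dystroglycan. Nidogens are short rods that bind the laminin gamma chain and type IV collagen, and perlecan is a large heparan sulphate proteoglycan that binds laminin, nidogen and growth factors. In brain vessels the endothelial basement membrane is known for the chains encoded by Lama4 and Lama5, and the parenchymal membrane at the astrocyte endfeet for Lama2 and Lama1. Type IV collagen forms a separate network that nidogens and perlecan link to laminin, and LH3, encoded by Plod3, hydroxylates and glycosylates its lysines.

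Levels are given in FPKM, the authors' count of fragments per kilobase and per library size, and differences are of log2(FPKM + 1), in which changes of low genes look smaller than they are. A gene was called when limma's adjusted p, taken over all 13082 genes tested, was below 0.05. Estimated depth was 18.1 to 31.5 M fragments (M, mega) for LH3-AL libraries, 21.2 to 27.8 M for GFP-AL libraries and 13.5 to 29.8 M for GFP-Veh libraries. GFP-Veh replicates 1 to 4 were at 13.5 to 16.0 M, below every library of the other groups, and only its replicate 5 was at 29.8 M. Low depth and saline thus went largely together. The first principal component held 43.6% of the variance and ran from -26.9 to -6.44 in LH3-AL, 19.8 to 58 in GFP-AL and -27.1 to -4.13 in GFP-Veh. GFP-AL replicates 2 and 3 and GFP-Veh replicate 2 stood apart from their groups, so the counts of called genes in each gene list are also given without these 3 libraries. Plod3 itself was at 19.5 to 23.2 FPKM in LH3-AL, 12.2 to 14.9 FPKM in GFP-AL and 16.0 to 17.6 FPKM in GFP-Veh, and the 3 groups did not overlap. Endothelial markers summed to 2382 to 3681 FPKM in LH3-AL, 3587 to 5290 FPKM in GFP-AL and 2583 to 3562 FPKM in GFP-Veh. Such a sum follows its most abundant genes. Of the 12 markers, 4 were called higher and 3 lower in GFP-AL against GFP-Veh, with a median difference of -0.13. Of all genes, 10.8% were called higher and 17.7% lower there. In LH3-AL against GFP-AL, 1 marker was higher and 3 lower, where 17.0% and 11.4% of all genes were. Without the 3 libraries that stood apart, the marker counts were 2 and 1, and 1 and 1. Choroid plexus markers, a tissue that the labels say was cleared, summed to 3175 to 5270 FPKM in LH3-AL, 1977 to 3102 FPKM in GFP-AL and 3682 to 9218 FPKM in GFP-Veh.

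Of the 10 genes, Lama3 was the only gene whose level fell in GFP-AL and was higher again in LH3-AL by limma in all 15 fits that left out a library and all 10 other alternatives that included it. Lama4 was lower and Nid1 and Nid2 higher in GFP-AL than in GFP-Veh, with calls that several alternatives did not keep. The chains that make up most of the laminin message, Lamb2, Lamc1 and Lama5, were not called in any comparison, nor was Hspg2. Against GFP-Veh, 2 of the 10 genes were called higher in GFP-AL and 2 lower, where 28.6% of all genes were called, 10.8% higher and 17.7% lower. With median-of-ratios scaling, 1843 genes were called higher and 1702 lower in that comparison, against 1416 and 2321 as deposited. Between LH3-AL and GFP-AL, 1 of the 10 was higher in LH3-AL and 1 lower, where 28.5% of all genes were called, 17.0% higher and 11.4% lower. There the split was 1765 and 1895 with median-of-ratios scaling, against 2227 and 1496. Between LH3-AL and GFP-Veh none of the 10 was called by limma, where 0.520% of all genes were. None of the 10 had an unadjusted p under 0.05 there either. Without the 3 libraries that stood apart, 1 of the 10 was higher and 1 lower in GFP-AL against GFP-Veh, 1 was higher and 0 lower in LH3-AL against GFP-AL, and again 0 were called between LH3-AL and GFP-Veh. Read against these shares, the counts show nothing particular to the 10 genes. The median difference of the 10 genes was 0.032 in GFP-AL against GFP-Veh, where that of all genes was -0.093. It was -0.071 in LH3-AL against GFP-AL, where that of all genes was 0.079. These comparisons share their GFP-AL libraries, so an opposite sign of a gene in them is not separate evidence.

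**Figure D1:**
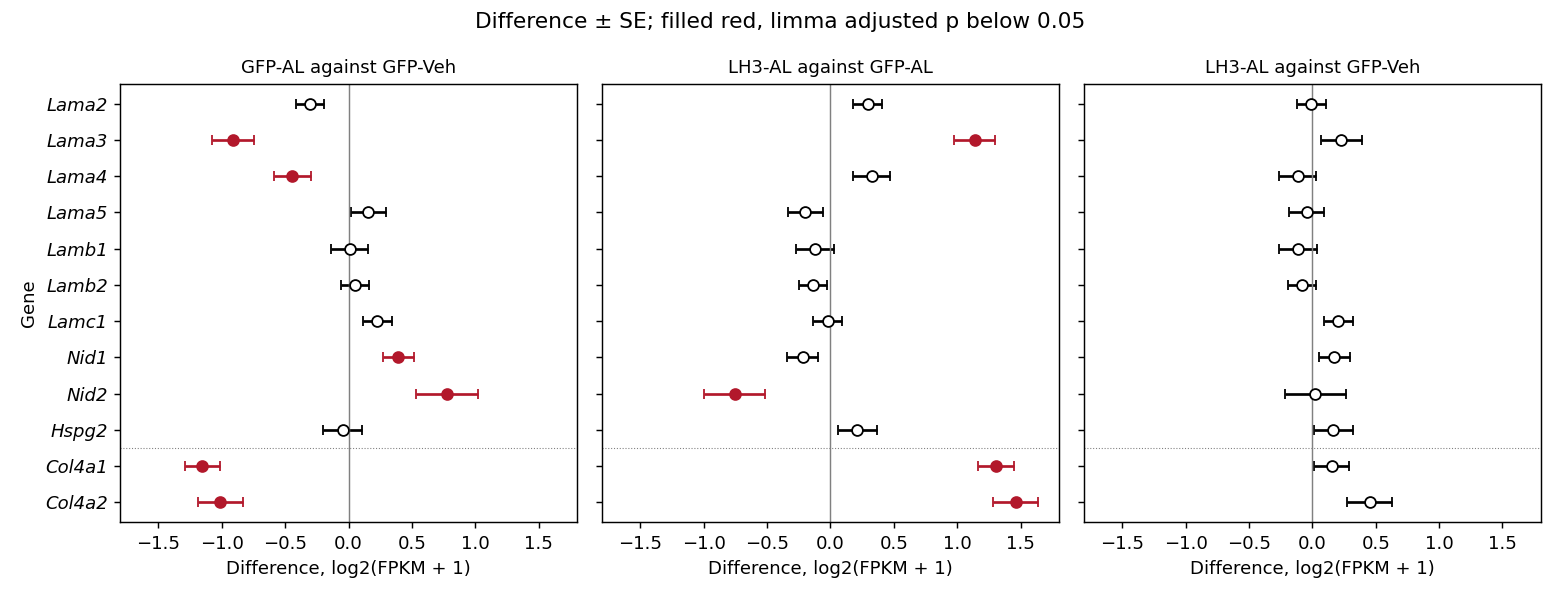
Difference of each gene on the log2(FPKM + 1) scale with its standard error, for GFP-AL against GFP-Veh, LH3-AL against GFP-AL and LH3-AL against GFP-Veh; filled red points had a limma adjusted p below 0.05. Lama3 (-0.91 and 1.14) lies on the side of the type IV collagen genes Col4a1 (-1.16 and 1.31) and Col4a2, while Nid2 (0.78 and -0.76) lies on the other, and no point of the right panel is filled.

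The level of the 10 genes spanned a wide range. Averaged over the 15 libraries, Lamb2 was at 99.1 FPKM, rank 299 of the 13082 genes. Nid1 (32.8 FPKM), Lama5 (30.4 FPKM) and Lamc1 (29.5 FPKM) followed and overlapped each other in their libraries. Hspg2 (20.8 FPKM) and Nid2 (19.7 FPKM) came next, with overlapping ranges of 15.6 to 30.6 and 12.4 to 41.0 FPKM. Lama4 was at 7.45 FPKM, Lama2 at 3.99 FPKM, Lamb1 at 3.41 FPKM and Lama3 at 3.18 FPKM, and the last 3 of these overlapped. The estimated number of fragments behind a value ran from 170 for Lama3, a counting error of 7.7%, to 19870 for Lamb2.

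**Figure D2:**
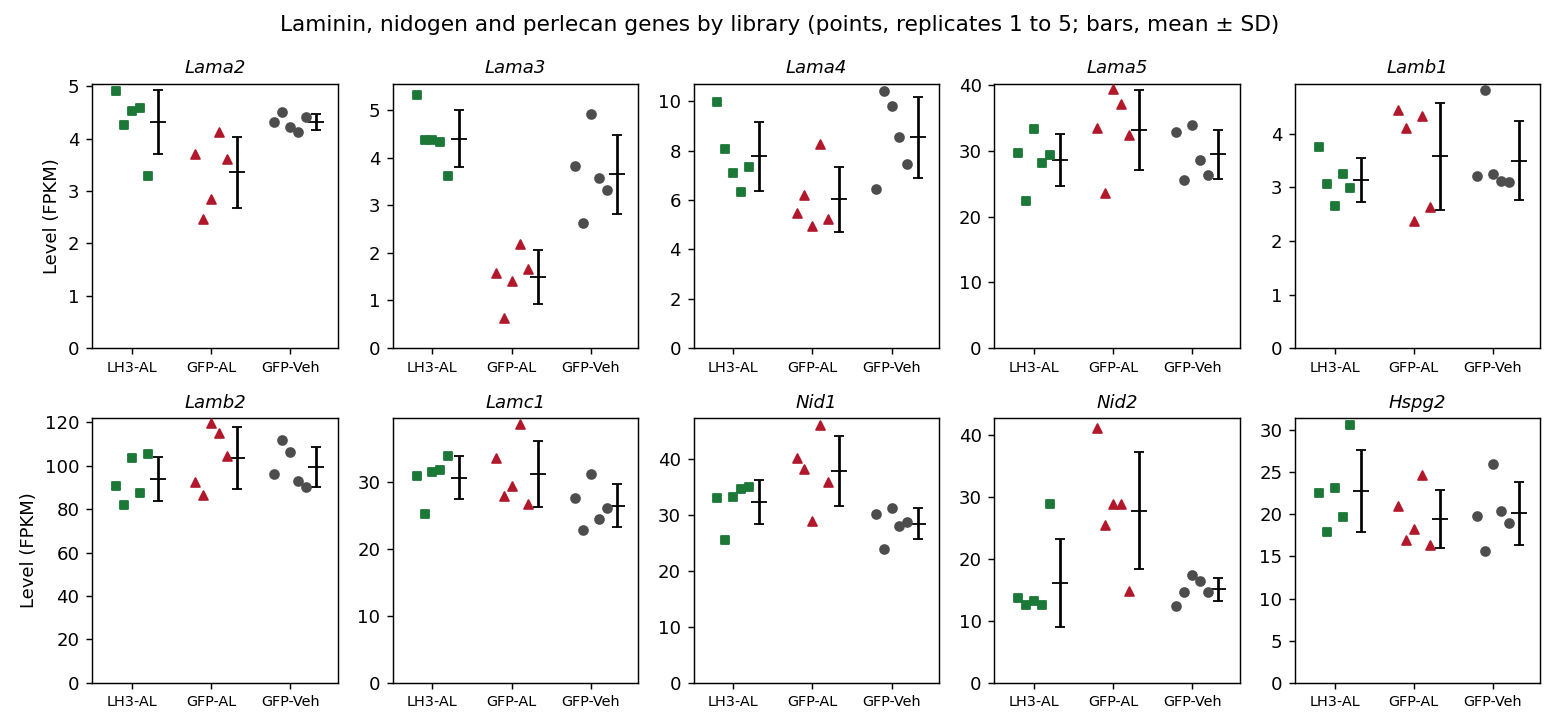
Level (FPKM, linear axes from 0) of each gene in each library, with replicates 1 to 5 as points and the mean with its SD as bars, for LH3-AL, GFP-AL and GFP-Veh. Lama3 in GFP-AL (0.637 to 2.19 FPKM) lies below every library of the other groups, and replicate 5 of LH3-AL stands at 28.8 FPKM for Nid2.

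Among the alpha chains, Lama3 showed the widest separation. It is best known from epithelial basement membranes and lies on chromosome 18 (GRCm38, 12333819 to 12583013, plus strand). LH3-AL libraries had 5.32, 4.37, 4.37, 4.33 and 3.62 FPKM, GFP-AL libraries had 1.57, 0.637, 1.41, 2.19 and 1.67 FPKM, and GFP-Veh libraries had 3.82, 2.63, 4.91, 3.58 and 3.32 FPKM. All 5 GFP-AL libraries were thus below all 10 others, and the LH3-AL and GFP-Veh libraries overlapped. Lama3 fell in GFP-AL to 1.5 ± 0.563 FPKM, against 3.65 ± 0.832 FPKM in GFP-Veh (SD, n = 5 each). That difference was -0.91 ± 0.16 (SE; limma adjusted p = 0.000893), and groups that do not overlap in this direction were found for 10.1% of all genes. In LH3-AL it averaged 4.4 ± 0.605 FPKM, which was 1.14 ± 0.16 above GFP-AL (limma adjusted p = 0.000275), where 11.0% of all genes had groups that did not overlap in that direction. LH3-AL and GFP-Veh differed by 0.23 ± 0.16 (limma adjusted p = 0.739). The exact two-sided permutation p was 0.00794 in both comparisons with GFP-AL, the smallest that 5 against 5 libraries can give.

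The authors' deposited table for GFP-AL against GFP-Veh lists Lama3 with a log2 fold change of -1.29 (q = 0.000681). The authors' deposited table named for LH3-AL against GFP-Veh lists it with 1.56 (q = 1.88e-06). Over 995 genes that could be compared, the authors' deposited table of that name had the sign of LH3-AL against GFP-AL in 995 and that of LH3-AL against GFP-Veh in 559. Its values thus go with LH3-AL against GFP-AL rather than with its name. Lama3 is the only one of the 10 genes in each of the authors' deposited tables, which hold no gene with an absolute log2 fold change below 1.

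Lamb3, a beta chain known to pair with the Lama3 chain, was under the limit for testing. It was at 0.110 to 0.256 FPKM in LH3-AL, 0.0537 to 0.318 FPKM in GFP-AL and 0.102 to 0.222 FPKM in GFP-Veh. These are bulk libraries, in which fewer cells of a type and less RNA per cell cannot be told apart. Between the groups, choroid plexus markers moved in the direction of Lama3. Of 9 markers, 7 were lower in GFP-AL than in GFP-Veh and 6 higher in LH3-AL than in GFP-AL. None of the 9 was near 0. Of all genes, 17.7% were lower in the first comparison and 17.0% higher in the second. Without the 3 libraries that stood apart, the marker counts were 5 and 5. Within a group the markers and Lama3 did not always go together. GFP-Veh replicate 2 had the highest marker sum of its group, 9218 FPKM, and its lowest Lama3, 2.63 FPKM. In LH3-AL, replicate 2 had the highest marker sum, 5270 FPKM, and replicate 1 the highest Lama3, 5.32 FPKM. Lama3 also followed the first principal component (r = -0.905 over 15 libraries). The part of either in its difference was not tested.

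Lama2, the alpha chain of muscle and of the astrocyte side of brain vessels, pointed the same way with a smaller difference. It lies on chromosome 10 (GRCm38, 26980036 to 27619758, minus strand). LH3-AL libraries had 4.90, 4.27, 4.52, 4.58 and 3.29 FPKM, GFP-AL libraries had 3.70, 2.47, 2.86, 4.13 and 3.61 FPKM, and GFP-Veh libraries had 4.32, 4.51, 4.22, 4.13 and 4.403 FPKM. The GFP-AL and GFP-Veh groups did not overlap, by a margin of less than 0.01 FPKM between GFP-AL replicate 4 and GFP-Veh replicate 4, and LH3-AL replicate 5 lay within the GFP-AL range. The difference was -0.30 ± 0.11 in GFP-AL against GFP-Veh (limma adjusted p = 0.0562; exact permutation p = 0.00794) and 0.29 ± 0.11 in LH3-AL against GFP-AL (limma adjusted p = 0.063). Neither was called. Both were called without GFP-AL replicate 4 (limma adjusted p = 0.027 and 0.0308) and without LH3-AL replicate 5 (0.0421 and 0.0248).

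Lama4, the alpha chain found all along the endothelial basement membrane, lies on chromosome 10 (GRCm38, 38965515 to 39110188, plus strand). LH3-AL libraries had 9.99, 8.08, 7.09, 6.35 and 7.36 FPKM, GFP-AL libraries had 5.47, 6.21, 4.94, 8.27 and 5.25 FPKM, and GFP-Veh libraries had 6.45, 10.4, 9.82, 8.58 and 7.45 FPKM. GFP-AL replicate 4 lay inside the ranges of both other groups, and the other 4 GFP-AL libraries were below all of GFP-Veh. Lama4 was lower in GFP-AL than in GFP-Veh, with a difference of -0.44 ± 0.15 (limma adjusted p = 0.0353). That call was lost without any of 6 single libraries (GFP-Veh replicates 2, 3 and 4 and GFP-AL replicates 1, 3 and 5, adjusted p up to 0.0845) and with either other scaling (0.0809 with median-of-ratios, 0.0743 with quantile normalization). Without the 3 libraries that stood apart the difference was -0.32 (limma adjusted p = 0.194). With depth as a covariate it was -0.35, and the call was lost (0.21). The call was also lost with only the 2 groups compared (limma adjusted p = 0.0621), array weights (0.101) and a replicate block (0.0546). LH3-AL was 0.33 ± 0.15 above GFP-AL, which was not called (limma adjusted p = 0.109) except without GFP-AL replicate 4 (0.0339).

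Lama5, the most abundant alpha chain here and, with Lama4, a chain of the endothelial membrane, lies on chromosome 2 (GRCm38, 180176373 to 180225859, minus strand). Its levels were 22.3 to 33.3 FPKM in LH3-AL, 23.6 to 39.3 FPKM in GFP-AL and 25.6 to 33.8 FPKM in GFP-Veh, and the 3 groups overlapped throughout. It differed by 0.16 ± 0.14 in GFP-AL against GFP-Veh (limma adjusted p = 0.418) and by -0.20 ± 0.14 in LH3-AL against GFP-AL (0.283).

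The makeup of the alpha chain message differed between the groups. FPKM is per length, so the chains can be summed, and a share within a library does not depend on a factor that scales the whole library. Some deposited values were below 0, by a step that is not stated. Whether that step alters the shares was not tested. Lama5 made up 55.7% ± 4.67 of the summed alpha chain FPKM in LH3-AL, 68.1% ± 2.9 in GFP-AL and 57.4% ± 4.08 in GFP-Veh (SD, n = 5 each). The GFP-AL libraries, at 65.1% to 72.7%, did not overlap LH3-AL (49.7% to 61%) or GFP-Veh (51.6% to 62.6%). Lama3 made up 8.6% ± 0.972 in LH3-AL, 2.99% ± 0.811 in GFP-AL and 7.09% ± 1.18 in GFP-Veh, and GFP-AL again lay apart. Lama4 held 15.2% ± 2.63 in LH3-AL, 12.7% ± 3.3 in GFP-AL and 16.7% ± 3.13 in GFP-Veh, with overlap between all groups. Lama2 held 8.43% in LH3-AL, 6.93% in GFP-AL and 8.48% in GFP-Veh. Lama1, an alpha chain outside the 10 genes that was at 5.32 FPKM on average, held 12% in LH3-AL, 9.28% in GFP-AL and 10.3% in GFP-Veh. These shares describe message and were given no test.

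**Figure D3:**
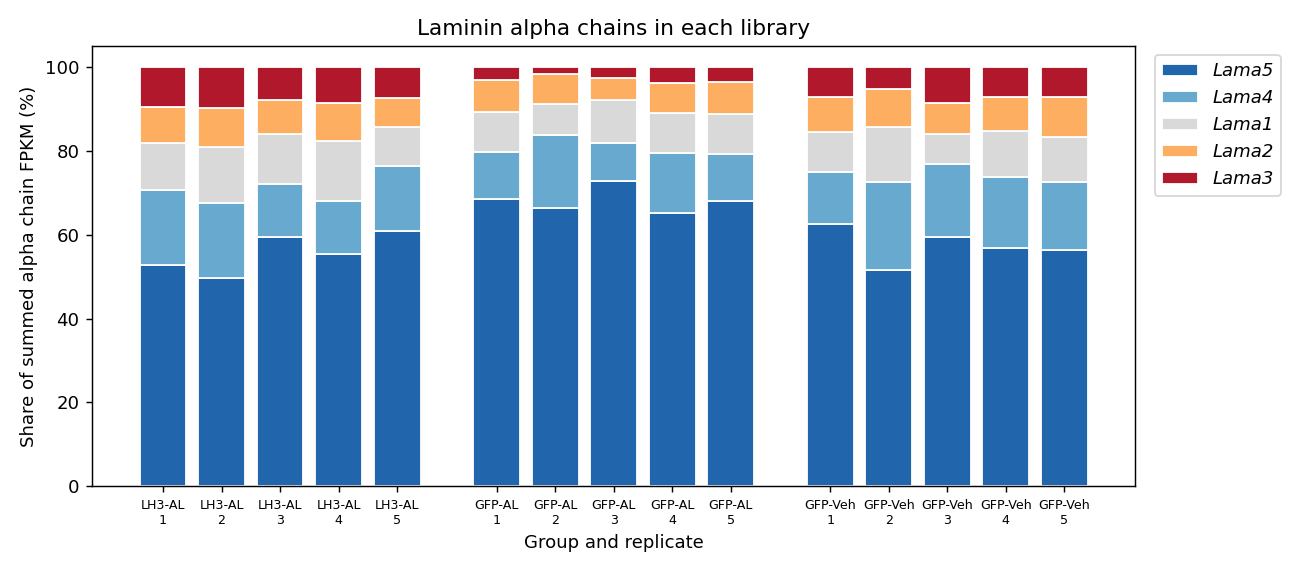
Share of each alpha chain in the summed FPKM of Lama1 to Lama5 (percent, stacked to 100) in each library of LH3-AL, GFP-AL and GFP-Veh. The dark blue Lama5 segment ends between 65.1 and 72.7% in GFP-AL and at or below 62.6% in every other library, and the red Lama3 segment at the top is at most 3.84% in GFP-AL.

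Entries of RefSeq's promoter table (GRCm38.p6) were examined for 6 of the 10 genes. Lama2 and Lama5, the alpha chains among them, are shown as chains of low and high abundance. Their differences in GFP-AL against GFP-Veh had opposite signs (-0.30 and 0.16), but neither was called. Each sequence is the stretch before the annotated RefSeq start, at most 250 bases, 5′ to 3′ on the gene's strand, and capitals mark a match to any of 7 motifs on either strand. The motifs were the GC box GGGCGG, the KLF box CACCC, the E-box CACGTG, the TATA box TATAAA, the CAAT box CCAAT, the AP-1 motif TGANTCA and the STAT motif TTCNNNGAA, and matches may overlap. The Lama2 stretch is chr10:27616943-27617192 on the minus strand, inside the longer GENCODE gene, and the Lama5 stretch is chr2:180225860-180226109 on the minus strand.
Lama2: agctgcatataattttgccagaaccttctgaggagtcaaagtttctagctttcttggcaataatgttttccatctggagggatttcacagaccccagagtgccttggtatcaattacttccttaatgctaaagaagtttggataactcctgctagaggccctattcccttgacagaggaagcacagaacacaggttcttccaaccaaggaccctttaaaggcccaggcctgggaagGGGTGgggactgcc
Lama5: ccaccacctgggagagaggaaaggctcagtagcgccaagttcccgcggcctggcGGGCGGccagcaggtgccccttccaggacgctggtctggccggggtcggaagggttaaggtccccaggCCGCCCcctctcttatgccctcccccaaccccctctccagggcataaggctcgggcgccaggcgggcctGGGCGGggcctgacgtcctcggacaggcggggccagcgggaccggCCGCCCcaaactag
The Lama5 stretch held 4 GC boxes and none of the other motifs, and had a GC content of 72.4%. The Lama2 stretch held 1 KLF box and none of the others, and had a GC content of 47.2%. Over 32851 mouse promoters, 32.7% held a GC box in the same length and 52% a KLF box. A match is a description of letters only.

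The beta and gamma chains are shared by most vascular laminins. Lamb2, on chromosome 9 (GRCm38, 108479736 to 108490530, plus strand), is a beta chain of vessel walls. It was at 82.0 to 105 FPKM in LH3-AL, 86.7 to 120 FPKM in GFP-AL and 90.3 to 112 FPKM in GFP-Veh. Of the summed Lamb1 and Lamb2 FPKM it made up 96.7% in LH3-AL, 96.6% in GFP-AL and 96.6% in GFP-Veh. Its difference was 0.054 ± 0.11 in GFP-AL against GFP-Veh (limma adjusted p = 0.742) and -0.14 ± 0.11 in LH3-AL against GFP-AL (0.351), with the sign turned in both by quantile normalization (-0.13 and 0.096). Lamb1, a beta chain found in many tissues, was at 2.65 to 3.75 FPKM in LH3-AL, 2.38 to 4.44 FPKM in GFP-AL and 3.11 to 4.82 FPKM in GFP-Veh. In GFP-AL it split into replicates 1, 2 and 4 at 4.10 to 4.44 FPKM and replicates 3 and 5 at 2.38 and 2.63 FPKM, and its difference from GFP-Veh was 0.0090 ± 0.15 (limma adjusted p = 0.972).

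Lamc1, on chromosome 1 (GRCm38, 153218922 to 153332786, minus strand), encodes the gamma chain that nidogens bind. Its libraries were at 25.2 to 34.0 FPKM in LH3-AL, 26.7 to 38.8 FPKM in GFP-AL and 22.9 to 31.3 FPKM in GFP-Veh, all overlapping. It differed by 0.23 ± 0.12 in GFP-AL against GFP-Veh (limma adjusted p = 0.155), by -0.022 ± 0.12 in LH3-AL against GFP-AL (0.904) and by 0.20 ± 0.12 in LH3-AL against GFP-Veh (0.647). Lamc3, another gamma chain, was at 16.8 ± 2.69 FPKM in LH3-AL, 11.4 ± 3.41 FPKM in GFP-AL and 14.8 ± 1.16 FPKM in GFP-Veh, and rose in LH3-AL against GFP-AL (limma adjusted p = 0.0237).

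Type IV collagen message did not keep its ratio to Lamc1. Col4a1 was at 86.0 to 172 FPKM in LH3-AL, 40.03 to 49.9 FPKM in GFP-AL and 96.4 to 105 FPKM in GFP-Veh. The ratio of Col4a1 to Lamc1 FPKM was 3.75 ± 0.747 in LH3-AL, 1.47 ± 0.278 in GFP-AL and 3.87 ± 0.402 in GFP-Veh (SD, n = 5 each). Its highest value in GFP-AL, 1.87, was below its lowest value in the other groups, 3.32. The ratio is free of any factor that scales a whole library. Lamc1 was not called in any comparison, so the ratio says only that the difference of Col4a1 was unequal to that of Lamc1.

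Both nidogens were higher in GFP-AL than in GFP-Veh. Nid1, the nidogen of nearly all basement membranes, lies on chromosome 13 (GRCm38, 13437551 to 13512269, plus strand). LH3-AL libraries had 33, 25.5, 33.2, 34.5 and 34.9 FPKM, GFP-AL libraries had 40.1, 38.2, 28.9, 46.1 and 35.9 FPKM, and GFP-Veh libraries had 30.2, 24, 31.1, 27.9 and 28.8 FPKM. GFP-AL replicates 1, 2, 4 and 5 lay above all of GFP-Veh, and replicate 3 lay inside its range. Nid1 was higher in GFP-AL by 0.39 ± 0.12 (limma adjusted p = 0.0259). The call was lost without GFP-Veh replicate 4, GFP-AL replicate 1 or GFP-AL replicate 4 (limma adjusted p up to 0.0621) and with quantile normalization (0.0696). It was also lost with depth as a covariate (0.154). LH3-AL differed from GFP-AL by -0.22 ± 0.12 (limma adjusted p = 0.187) and from GFP-Veh by 0.17 ± 0.12 (0.729), and neither was called. The promoter of Nid1, the called gene among those with an examined RefSeq entry, is chr13:13437352-13437550 on the plus strand, cut where the gene's own exon begins.
Nid1: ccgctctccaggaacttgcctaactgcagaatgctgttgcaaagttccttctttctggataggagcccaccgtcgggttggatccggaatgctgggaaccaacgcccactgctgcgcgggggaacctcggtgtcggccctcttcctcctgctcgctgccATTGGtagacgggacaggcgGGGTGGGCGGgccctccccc
It held 1 GC box, 1 KLF box overlapping it and 1 CCAAT box on the minus strand. A CCAAT box occurred in 33.8% of all promoters over 250 bases.

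Nid2, the other nidogen of vertebrates, lies on chromosome 14 (GRCm38, 19751265 to 19811787, plus strand). LH3-AL libraries had 13.6, 12.5, 13.2, 12.5 and 28.8 FPKM, GFP-AL libraries had 41.0, 25.4, 28.8, 28.8 and 14.8 FPKM, and GFP-Veh libraries had 12.4, 14.7, 17.3, 16.4 and 14.7 FPKM. In both drug-treated groups replicate 5 went against the others: it was the highest of LH3-AL, at the level of GFP-AL, and the lowest of GFP-AL, inside the range of GFP-Veh. Nid2 was at 27.8 ± 9.36 FPKM in GFP-AL against 15.1 ± 1.86 FPKM in GFP-Veh, a difference of 0.78 ± 0.24 (limma adjusted p = 0.0257). In LH3-AL it was at 16.1 ± 7.1 FPKM, lower than in GFP-AL, with a difference of -0.76 ± 0.24 (limma adjusted p = 0.0301; exact permutation p = 0.0635). Without LH3-AL replicate 5 the group mean difference from GFP-AL was -0.98 and the call was kept. The call against GFP-Veh was lost without GFP-Veh replicate 1 or 5 or GFP-AL replicate 1 or 3 (limma adjusted p up to 0.0612). The call of LH3-AL against GFP-AL was lost without GFP-AL replicate 1, 3 or 4 or any of LH3-AL replicates 1 to 4 (up to 0.0718). Without the 3 libraries that stood apart both calls were lost (0.11 and 0.112), with differences of 0.75 and -0.74. With depth as a covariate the call against GFP-Veh was lost (limma adjusted p = 0.105), at a difference of 0.77. With a replicate block both calls were lost (limma adjusted p = 0.0539 and 0.0583). With only the 2 groups compared, that of LH3-AL against GFP-AL was lost (0.0653). The Nid2 exons share 437 bases with Rtraf on the other strand, and no source used here says whether counting used strand.

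Nid2 held 32.5% ± 7.46 of the summed nidogen FPKM in LH3-AL, 41.6% ± 8.87 in GFP-AL and 34.7% ± 3.47 in GFP-Veh, with overlap between all groups. The tested genes whose levels were most like Nid2 over the 15 libraries were Meox1 (Pearson r = 0.928), Sparc (0.911) and Kcne3 (0.899). Sparc encodes a collagen-binding matrix protein and Meox1 a homeobox transcription factor. These genes were picked for their likeness to Nid2 in the same libraries, so their values are a description. Sparc was at 582 FPKM in LH3-AL replicate 5, where the other LH3-AL libraries had 340 to 425 FPKM, and at 470 FPKM in GFP-AL replicate 5, where the others had 552 to 717 FPKM; that library was still above all of GFP-Veh (354 to 428 FPKM). Meox1 was at 8.94 FPKM in LH3-AL replicate 5, where the others had 3.11 to 4.14 FPKM, and at 5.30 FPKM in GFP-AL replicate 5, where the others had 10.8 to 19.7 FPKM and GFP-Veh had 4.57 to 8.04 FPKM. Col4a1 was also highest in LH3-AL replicate 5, at 172 FPKM, but GFP-AL replicate 5 (49.9 FPKM) stayed with its group.

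**Figure D4:**
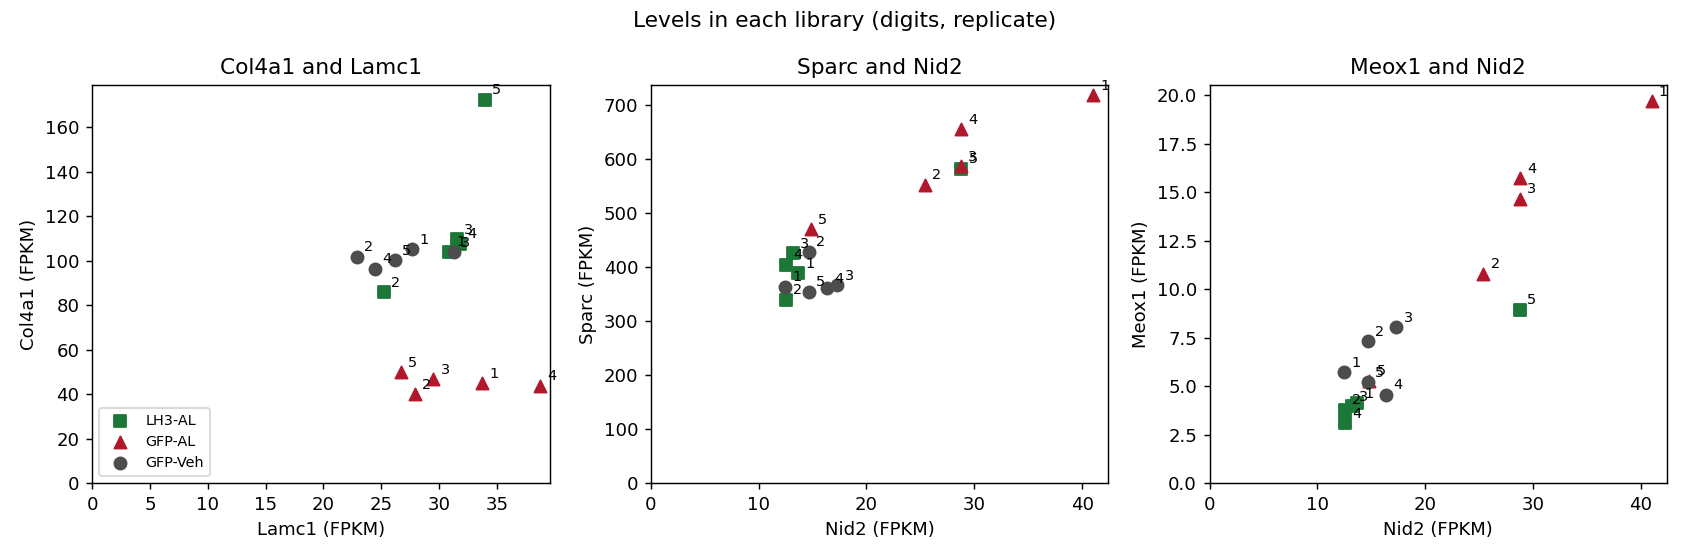
Level (FPKM, linear axes from 0) of Col4a1 against Lamc1, Sparc against Nid2 and Meox1 against Nid2 in each of the 15 libraries, with the replicate number beside each point and the group as colour and shape. At like Lamc1 levels the GFP-AL libraries lie at 40.03 to 49.9 FPKM of Col4a1, and along the Nid2 axis LH3-AL replicate 5 (28.8 FPKM) lies among the GFP-AL libraries and GFP-AL replicate 5 (14.8 FPKM) among the others.

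Hspg2, on chromosome 4 (GRCm38, 137468769 to 137570630, plus strand), encodes the protein core of perlecan. It was at 17.9 to 30.6 FPKM in LH3-AL, 16.3 to 24.6 FPKM in GFP-AL and 15.6 to 25.9 FPKM in GFP-Veh. The groups overlapped almost wholly, and the highest library was again LH3-AL replicate 5. Hspg2 differed by -0.046 ± 0.15 in GFP-AL against GFP-Veh (limma adjusted p = 0.845; 0.045 with median-of-ratios scaling) and by 0.21 ± 0.15 in LH3-AL against GFP-AL (0.309).

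Some pairs of the genes varied together and others did not. Over the 15 libraries, which share their depth and preparation, Pearson's r was 0.814 for Lamc1 with Nid1 and 0.731 for Lamc1 with Hspg2. It was 0.8 and 0.875 for deviations from the group means. Lama2 and Lama3 had r = 0.817 (0.687 within groups) and Lama5 and Lamb2 had r = 0.709 (0.677 within groups). Nid2 had r = -0.659 with Lama2 and -0.641 with Lama3, but only -0.356 and -0.102 within groups. Within groups the 45 pairs ran from -0.359 (Lama5 with Lamb1) to 0.875, with a median of 0.26. The genes nearest to Lama3 were Nudt12 (r = 0.983), Peg13 (0.977) and Nek9 (0.974). Those nearest to Lama2 were Sdc2 (0.962), Tbx18 (0.947) and Abca9 (0.945), and the nearest to Lama4 was Aggf1 (0.926). Jag2, which encodes a Notch ligand, was nearest to Lama5 (0.902) and Msn, which encodes moesin, to Nid1 (0.937). The nearest to Lamc1, Lamb2, Hspg2 and Lamb1 were Slc25a24 (0.886), Rnf216 (0.875), Jazf1 (0.858) and Thg1l (0.84).

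All 10 genes are long, with at least 5000 exon bases, and more of the long genes were called lower than higher in GFP-AL. Of 5309 such genes, 6.89% were called higher and 20.3% lower in GFP-AL against GFP-Veh, with a median of -0.16. In LH3-AL against GFP-AL, 21.4% were higher and 6.4% lower, with a median of 0.17. Of 10 pericyte markers, 3 were lower in GFP-AL than in GFP-Veh, where 17.7% of all genes were, and 4 were higher in LH3-AL than in GFP-AL, where 17.0% were. Others did not pass, among them Pdgfrb (0.20 ± 0.11 in GFP-AL against GFP-Veh) and Kcnj8 (0.19 ± 0.16). The markers summed to 1284 to 1619 FPKM in LH3-AL, 799.9 to 1353 FPKM in GFP-AL and 1359 to 1716 FPKM in GFP-Veh. Without the 3 libraries that stood apart, 1 pericyte marker was higher and 1 lower in GFP-AL, and 2 were higher in LH3-AL; with depth as a covariate, 0 were lower in GFP-AL and 4 higher in LH3-AL. No pericyte marker averaged below 0.1 FPKM. The part of gene length or of pericytes in the differences of the 3 alpha chains was not tested.

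The other genes that build on or bind these proteins were mixed. Of 16 tested members of a list of 23 other non-collagen basement membrane and associated proteins, 3 rose and 4 fell in GFP-AL against GFP-Veh, with a median of -0.29, and 3 rose and 1 fell in LH3-AL against GFP-AL. Of all genes, 10.8% rose and 17.7% fell in the first comparison, and 17.0% rose and 11.4% fell in the second. Leaving out the 3 libraries that stood apart gave 3 and 3, and 2 and 2, of the 16. Ntn4, a netrin that binds laminin gamma chains, had a difference of -0.55 ± 0.09 (limma adjusted p = 0.000585) and Agrn, a heparan sulphate proteoglycan beside perlecan, one of -0.68 ± 0.17 (0.00774), in GFP-AL against GFP-Veh. Hmcn1, which encodes the matrix protein hemicentin, also fell there (-1.13 ± 0.28, limma adjusted p = 0.0069). Sparc went the other way: it rose by 0.66 ± 0.14 in GFP-AL against GFP-Veh (limma adjusted p = 0.00369) and differed by -0.49 ± 0.14 in LH3-AL against GFP-AL (0.0217). Ntn4 and Agrn rose in LH3-AL against GFP-AL by 0.41 ± 0.09 (limma adjusted p = 0.00459) and 0.82 ± 0.17 (0.00289). Of 13 laminin receptors tested, out of 14, 2 rose and 2 fell in GFP-AL against GFP-Veh, and 3 rose and 3 fell in LH3-AL against GFP-AL. The same shares of all genes stand beside these. Median-of-ratios scaling gave 5 and 1, and 2 and 4, of the receptors. Their counts were 3 and 1, and 1 and 2, without the 3 libraries that stood apart. Sdc1, a cell surface heparan sulphate proteoglycan of the syndecan family, rose in GFP-AL to 4.78 ± 2.12 FPKM, against 2.06 ± 0.558 FPKM in GFP-Veh (limma adjusted p = 0.00553). Mcam, a receptor for the Lama4 chain, rose in GFP-AL to 60.01 ± 7.4 FPKM, against 43.2 ± 3.94 FPKM in GFP-Veh, and Itga7, a laminin-binding integrin, fell to 18.7 ± 2.58 FPKM, against 25.4 ± 2.33 FPKM in GFP-Veh (limma adjusted p = 0.00673 and 0.00762). Sdc2, another syndecan, fell to 24.8 ± 4.32 FPKM, against 32.5 ± 1.66 FPKM in GFP-Veh (limma adjusted p = 0.0252).

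The genes of the dystrophin complex and of dystroglycan glycosylation act where cells anchor to the Lama2 chain. Of 17 tested out of 21, none rose and 6 fell in GFP-AL against GFP-Veh, and 7 rose and none fell in LH3-AL against GFP-AL, by limma, with medians of -0.38 and 0.28. Of all genes, 17.7% fell in GFP-AL against GFP-Veh and 17.0% rose in LH3-AL against GFP-AL. When the 3 libraries that stood apart were left out, 5 fell and 5 rose. At an unadjusted p under 0.05, the numbers that rose and fell were 0 and 9 in the comparison with GFP-Veh, and 9 and 0 in that with GFP-AL. The share of all genes at that looser threshold was not taken. Utrn, which encodes utrophin, was at 56.4 ± 8.86 FPKM in LH3-AL, 28.7 ± 9.95 FPKM in GFP-AL and 57.5 ± 15.1 FPKM in GFP-Veh. Pomt1, which starts the sugar chain through which dystroglycan binds laminin, was at 3.20 ± 0.409 FPKM in LH3-AL, 1.99 ± 0.401 FPKM in GFP-AL and 3.39 ± 0.441 FPKM in GFP-Veh. None of the 3 lists held a gene called in LH3-AL against GFP-Veh. These lists were chosen with earlier results of the data known, and their counts were read beside those of all genes only.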

How the data were processed

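Cerebral vessels came, per the labels' protocols, from brains of perfused mice, homogenised and cleared of myelin, neurons and detached cells by repeated spins. STAR 2.5.1b and the build mm8 are named in the submitters' processing notes; no source used here gives the counting step, its use of strand or the other settings. The authors deposited FPKM values for 22557 gene identifiers in 15 libraries, per the file headers. Of these values 5.99% were below 0 (lowest -0.465), which a plain FPKM cannot be. No source used here gives the step that made them, and they were set to 0. The authors also deposited tables of log2 fold changes with p-values and q-values for 2 comparisons. Rows sharing a symbol (31 symbols) were summed. Positions and exon lengths are those of GENCODE M21 (GRCm38), which matched 22400 identifiers, and none was converted between builds.

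Each comparison was tested by limma 3.58.1 (R 4.3.3), fitting group means to log2(FPKM + 1) of all 15 libraries with an intensity trend, for 13082 genes averaging 1 FPKM or more. Benjamini-Hochberg adjustment covered all genes tested within a comparison. Depth was estimated from the steps between low values, which were too seldom whole reads for a count test. Scripts were tested on simulated data. Named were all 10 genes, up to 4 called genes of a list (smallest p first), and for each gene the 3 most correlated ones, of which some are given. Genes named outside this rule are Sulf1, Pdgfrb, Kcnj8, Lamb3 and Lama1, chosen after their values were seen. The genes, the lists and the alternatives were chosen with earlier results of these data known. Alternatives were quantile normalization, median-of-ratios scaling, a filter at 5 FPKM or none, a pseudocount of 0.1, only the 2 groups compared, no intensity trend, array weights, a replicate block and leaving out each library. Fits without the 3 libraries that stood apart were in the same plan, though those libraries were picked from these same data. Depth as a covariate was added after the data were seen. Replicate numbers were not used to pair libraries, since same-numbered libraries did not deviate together (r from -0.261 to 0.286).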

Additional observations from a re-analysis of the deposited data

Results flagged for a closer look

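In 30 sets of 5 libraries (10 genes in 3 groups), the gap of the highest or lowest library to its nearest neighbour exceeded 0.71 of the range, Dixon's 95% limit for 5 values, in 3 sets. Chance gives about 1 in 20. Nid2 was at 28.8 FPKM in LH3-AL replicate 5, where the next library had 13.6 FPKM, and its gap was 0.931 of the range. Nid1 was at 25.5 FPKM in LH3-AL replicate 2, the lowest of that group, where the next library had 33 FPKM, and its gap was 0.795 of the range. Lamb1 was at 4.82 FPKM in GFP-Veh replicate 2, where the next had 3.25 FPKM, and its gap was 0.916 of the range. GFP-Veh replicate 2 is also the library with the highest summed choroid plexus markers, 9218 FPKM, and LH3-AL replicate 5 the one with the highest Sparc (582 FPKM) of its group. The part of these in the values was not tested.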

How the results depend on the processing

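Of 771 values of the 10 genes under alternatives, 703 kept their direction and their side of the threshold, 35 lost the call in the same direction, 5 gained it and 28 changed sign, all of these uncalled. Lama3 kept both calls wherever it was tested, from -1.01 to -0.768 (GFP-AL against GFP-Veh) and from 0.995 to 1.24 (LH3-AL against GFP-AL) without a library. A mean of at least 5 FPKM leaves out Lama2, Lama3 and Lamb1, which gave 1 lower in GFP-AL against GFP-Veh, 0 higher in LH3-AL against GFP-AL, and 2174 and 2109 genes called against 3737 and 3723, since fewer genes are tested. In GFP-AL against GFP-Veh the number called lower was 1, not 2, with median-of-ratios scaling, quantile normalization, only the 2 groups, array weights, the replicate block, without the 3 libraries that stood apart and with depth as a covariate. The number called higher was 1 with quantile normalization, the replicate block and without the 3 libraries, and 0 with depth, where 2350 genes were called. In LH3-AL against GFP-AL the number called lower was 0 with only the 2 groups, the replicate block and without the 3 libraries. Genes called in LH3-AL against GFP-Veh numbered 68, and 176 with only the 2 groups, 1195 with array weights, 31 with the replicate block, 156 without the 3 libraries and 4 with depth. The cause was not tested. Leaving out each library gave 2829 to 4436 genes called in GFP-AL against GFP-Veh, 2654 to 4289 for LH3-AL over GFP-AL, 27 to 110 for LH3-AL over GFP-Veh. Of the 10 genes it gave 0 to 2 higher and 1 to 3 lower in GFP-AL against GFP-Veh, 1 to 3 higher and 0 to 1 lower in LH3-AL against GFP-AL. For LH3-AL over GFP-Veh it gave 0.

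Signs turned for Hspg2 (0.045, median-of-ratios) in GFP-AL against GFP-Veh, for Lamb2 in GFP-AL against GFP-Veh (-0.13) and in LH3-AL against GFP-AL (0.096) and Lamc1 in the same (0.081) with quantile normalization. In LH3-AL against GFP-Veh they turned for Lama2 (0.0060 with median-of-ratios, 0.032 with array weights, 0.0037 without the 3 libraries), Nid2 (-0.047, array weights) and Lama5 (0.038, depth). Without a library, GFP-AL against GFP-Veh ranged from -0.13 to 0.046 for Hspg2, -0.061 to 0.11 for Lamb1 and -0.00055 to 0.12 for Lamb2. LH3-AL against GFP-AL ranged from -0.074 to 0.056 for Lamc1. LH3-AL against GFP-Veh ranged from -0.049 to 0.066 for Lama2, -0.10 to 0.038 for Lama5 and -0.20 to 0.088 for Nid2. FPKM carries no read counts, so counting error is known only through the estimated depth.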

Other observations

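Of the enzymes that cut laminins or perlecan, or trim their heparan sulphate, 12 of 17 were tested. Of these, 6 rose and 1 fell in GFP-AL against GFP-Veh, with a median of 0.51, and 1 rose and 7 fell in LH3-AL against GFP-AL, with a median of -0.49. Of all genes, 10.8% rose and 17.7% fell in the first comparison, and 17.0% rose and 11.4% fell in the second. Leaving out the 3 libraries that stood apart, 5 of the enzymes rose and 0 fell in GFP-AL, and 0 rose and 6 fell in LH3-AL. With depth as a covariate 4 of them rose in GFP-AL against GFP-Veh. Ctss, the lysosomal protease cathepsin S of myeloid cells, was at 47.6 ± 5.72 FPKM in LH3-AL, 154 ± 39.7 FPKM in GFP-AL and 50.4 ± 13.7 FPKM in GFP-Veh (SD, n = 5 each). Its differences were 1.60 ± 0.19 in GFP-AL against GFP-Veh (limma adjusted p = 4.73e-05) and -1.65 ± 0.19 in LH3-AL against GFP-AL (7.53e-05). Mmp3, stromelysin, rose by 2.04 ± 0.36 in GFP-AL against GFP-Veh and fell in LH3-AL against GFP-AL, with a difference of -2.31 ± 0.36 (limma adjusted p = 0.000884 and 0.000505). Its level was 0.206 ± 0.0954 FPKM in LH3-AL, 6.44 ± 5.36 FPKM in GFP-AL and 0.456 ± 0.212 FPKM in GFP-Veh (SD). Mmp3 thus passed the limit for testing, a mean of 1 FPKM, only through GFP-AL, the group where it was high. Ctsb and Ctsl, the lysosomal cathepsins B and L, rose by 0.65 ± 0.12 and 0.54 ± 0.12 in GFP-AL against GFP-Veh (limma adjusted p = 0.00141 and 0.00326). Plat was at 189.5 ± 39.75 FPKM in LH3-AL, 460.4 ± 142.7 FPKM in GFP-AL and 283.5 ± 52.8 FPKM in GFP-Veh. It rose by 0.66 ± 0.20 in GFP-AL against GFP-Veh (limma adjusted p = 0.0217) and differed by -1.25 ± 0.20 in LH3-AL against GFP-AL (0.000544). Sulf1, which trims sulphate groups from heparan sulphate, was the 1 gene that fell in GFP-AL (-0.40 ± 0.11) and rose in LH3-AL (0.37 ± 0.11), and is named after its values were seen. Markers of myeloid cells moved with these enzymes: 3 of 8 microglia and macrophage markers and 4 of 6 neutrophil markers were higher in GFP-AL than in GFP-Veh, where 10.8% of all genes were. Against GFP-AL, 4 of the 8 and 6 of the 6 were lower in LH3-AL, where 11.4% of all genes were. Fits without these 3 libraries gave 4 and 4 higher in GFP-AL, and 3 and 6 lower in LH3-AL, and none of the markers averaged below 0.1 FPKM. The neutrophil markers summed to 36.7 to 61.7 FPKM in LH3-AL, 106.5 to 903.3 FPKM in GFP-AL and 77 to 217.7 FPKM in GFP-Veh. Their part in the enzymes' difference was not tested.

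The enzymes that make heparan sulphate, the sugar chain of perlecan, were all tested (16 of 16). In GFP-AL against GFP-Veh 3 rose and 1 fell, and in LH3-AL against GFP-AL 2 rose and none fell, by limma. Of all genes, 10.8% rose and 17.7% fell in the first comparison, and 17.0% rose and 11.4% fell in the second. Ndst2, a sulphotransferase, rose by 0.35 ± 0.09 in GFP-AL against GFP-Veh (limma adjusted p = 0.00932). Hs6st2, which adds sulphate at another position of the chain, fell there, with a difference of -0.49 ± 0.13 (0.00955), and rose by 0.59 ± 0.13 in LH3-AL against GFP-AL (0.00371). The numbers of these 16 that rose and fell were 3 and 1, and 2 and 1, without the 3 libraries that stood apart. With depth as a covariate, none of the 16 was called higher in GFP-AL.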
